A study of Mus musculus with 8 samples.

Results

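The Frizzled genes encode the seven-pass membrane receptors that bind WNT proteins through an extracellular cysteine-rich domain. All 10 genes of the mouse family, *Fzd1* to *Fzd10*, were taken by symbol from the array's annotation, out of 19938 genes that had a probe set with 1 symbol, and each of the 10 was measured by exactly 1 probe set. A WNT bound to a Frizzled and to the co-receptors LRP5 or LRP6 engages the cytoplasmic Dishevelled proteins and stabilises b-catenin, which then acts on transcription with LEF1/TCF factors. Other WNT-Frizzled pairs act without b-catenin, through ROR, RYK or the planar cell polarity proteins. In the ventral midbrain WNT1/b-catenin signalling is known for its part in the generation of midbrain dopaminergic (mdDA) neurons, and WNT5A is known to act on the same cells largely without b-catenin.

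RNA was profiled on 8 Affymetrix Mouse Gene ST arrays in 4 groups of 2. Both dissected groups came from E12.5 *BAT-gal* embryos of mixed B6D2F1 background, which carry b-galactosidase (b-GAL) behind LEF1/TCF sites as a reporter of b-catenin signalling. The mdDA domain was laser-microdissected from the ventral midbrain where PITX3 and b-GAL were stained, and the lateral domain from the lateral midbrain where neither was. Both were pools of 5 embryos, and the domains were outlined by these stains on fixed sections, so each holds whatever other cells lie within the outline. The sorted neurons were GFP-positive cells of the ventral midbrain of E13.5 and E14.5 *Pitx3GFP/+* embryos, of mixed C57BL/6 x 129/Ola background, which carry GFP in 1 of the 2 *Pitx3* alleles. The number of embryos behind the sorted cells is not given in the sources used here. The 2 arrays of a group are technical replicates by their labels, so every p-value here measures the spread between arrays and not that between embryos. All values are log2 signals as the authors deposited them, after robust multi-array averaging (RMA). A difference of 1 is a doubling, and levels are compared between groups for the same gene only, because probe sets differ in brightness.

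The labels were checked against marker genes. Of 9 measured genes of midbrain dopaminergic neurons 8 were higher in the mdDA domain than laterally, and all 9 were higher in sorted neurons than laterally. The shares of all probe sets that were higher were 1.52% and 11.4%. *Pitx3* itself was the exception in the first comparison (log2 difference 0.67, limma adjusted p = 0.228). Median signals over all probe sets were 4.57 to 4.60 on the dissected arrays and 4.39 on the sorted arrays, so sorted-versus-dissected differences are also given after each array was centred on its median, which raised them by 0.20 against the mdDA domain and by 0.21 against the lateral domain.

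The first question was whether the WNT-responsive mdDA domain and the non-responsive lateral domain differed in their receptors. *Fzd1*, *Fzd2* and *Fzd8* were underrepresented in the mdDA domain, 3.32-fold, 2.48-fold and 2.04-fold lower, and no Frizzled gene was overrepresented there. By limma with the replicate number as a block and a false discovery rate below 10% over all 35556 probe sets, 3 of 10 Frizzled genes were lower, against 1.1% of all probe sets, and 0 of 10 were higher, against 1.52% of all. At an unadjusted p below 0.05 there were 4 members, *Fzd7* being added, and all 4 were lower, where 13.7% of all probe sets were below it in either direction. The median difference of the 10 genes was -0.21, beside -0.01 over all probe sets. In pieces of tissue, fewer cells of a type and less RNA per cell cannot be told apart.

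*Fzd1*, *Fzd2* and *Fzd7* form one branch of the family, and all of them can act through b-catenin. *Fzd1* read 8.06 and 7.72 on the lateral arrays and 6.16 and 6.15 on the mdDA arrays. Its sorted-neuron values were 6.02 and 6.19 at E13.5 and 5.03 and 5.94 at E14.5. Both lateral arrays thus lay above every other array, the mdDA values fell between those of E13.5, and the E14.5 pair was the most spread of the 4 groups. The log2 difference of the mdDA domain from the lateral domain was -1.73 (SE 0.17, 95% interval -2.18 to -1.28, n = 2 arrays each, limma adjusted p = 0.0507).

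*Fzd2*, which can also transmit WNT5A signals together with ROR receptors, read 7.74 and 7.90 in the lateral domain and 6.38 and 6.64 in the mdDA domain. In sorted neurons it read 6.14 and 5.62 at E13.5 and 5.94 and 5.22 at E14.5. The dissected domains did not overlap, and all 4 sorted arrays lay below both mdDA arrays. The difference between the domains was -1.31 (SE 0.15, 95% interval -1.71 to -0.91, limma adjusted p = 0.0623).

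*Fzd7*, best known from gastrulation and from epithelial stem cells, had a smaller difference with the same sign that did not pass the test. Its lateral values were 5.12 and 5.23, its mdDA values 4.46 and 4.88, its E13.5 values 4.65 and 4.55 and its E14.5 values 4.34 and 4.54. The lateral arrays were again the highest of the 8, but the mdDA arrays were 0.42 apart. The log2 difference between the domains was -0.50 (SE 0.16, 95% interval -0.95 to -0.06, limma adjusted p = 0.310). It passed only when the probe sets tested were limited to those with 1 symbol (limma adjusted p = 0.0755).

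**Figure D1:**
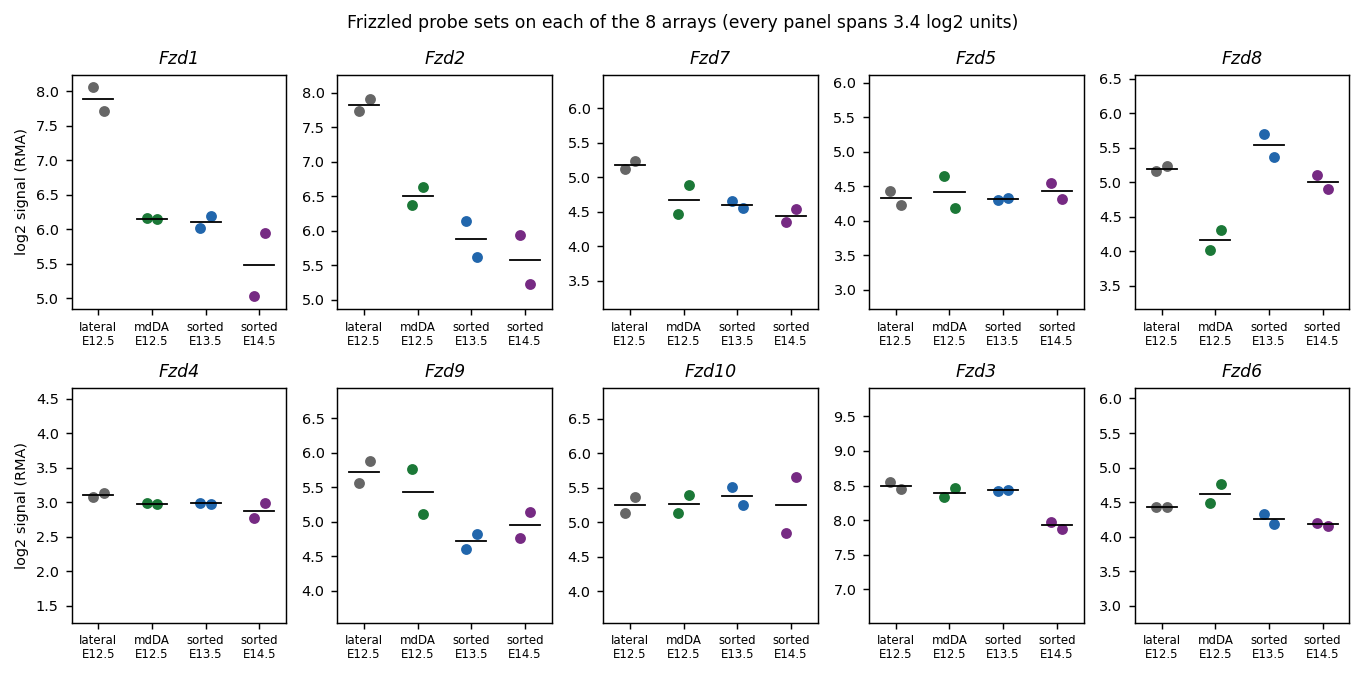
Log2 signal (y axis) of the 10 Frizzled probe sets on each array, by group (x axis), with points for arrays and a line for the mean of the 2 arrays; the panels have different origins but the same span. *Fzd1*, *Fzd2* and *Fzd7* are highest on both lateral arrays, *Fzd8* is lowest on both mdDA arrays, and *Fzd10* groups overlap.

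Because the mdDA domain was defined by a LEF1/TCF reporter, the sequence before the start of *Fzd1*, with the largest difference between the domains, and of its relative *Fzd7* is shown. RefSeq entries (GRCm38.p6) were held for 6 of the 10 genes, and *Fzd2*, *Fzd3*, *Fzd6* and *Fzd8* had none in the table used. The 250 bases end just before the annotated start and are written 5′ to 3′ on the gene's strand, with capitals for CTTTG, the core of the LEF1/TCF site, or for its reverse complement CAAAG.
Fzd1, chr5:4758217-4758466, minus strand: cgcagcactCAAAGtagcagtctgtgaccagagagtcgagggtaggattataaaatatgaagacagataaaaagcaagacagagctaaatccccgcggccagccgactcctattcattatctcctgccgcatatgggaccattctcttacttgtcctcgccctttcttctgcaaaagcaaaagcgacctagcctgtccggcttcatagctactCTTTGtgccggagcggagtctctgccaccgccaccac
Fzd7, chr1:59481897-59482146, plus strand: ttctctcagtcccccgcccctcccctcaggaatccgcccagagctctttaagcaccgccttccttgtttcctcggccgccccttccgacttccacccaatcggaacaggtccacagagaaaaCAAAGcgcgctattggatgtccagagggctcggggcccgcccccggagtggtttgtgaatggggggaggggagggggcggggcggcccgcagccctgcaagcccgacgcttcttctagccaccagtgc
The *Fzd1* window held 1 match on each strand and the *Fzd7* window 1 match. The full site given by the study also needs A or T at both positions before CAAAG or after CTTTG. The *Fzd7* match (aaCAAAG) meets this, and neither *Fzd1* match does (ctCAAAG and CTTTGtg). Counts of windows here are of the core alone. *Fzd10* also held 1 match, and *Fzd4*, *Fzd5* and *Fzd9* held none, so 3 of 6 windows had these letters, beside 48.6% of all 32851 windows of this length in the table. The *Fzd1* window had 12 CpG dinucleotides and 51.2% G or C, while the other 5 Frizzled windows had 17 to 42 CpG and 65.2% to 76.4% G or C. The medians over all windows were 6 CpG and 52.4%.

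*Fzd8* and *Fzd5* form another branch, which can also act with LRP6 in b-catenin signalling. The cysteine-rich domain of FZD8 is the one in which the contact with a WNT was first seen in a crystal. *Fzd8* read 4.03 and 4.31 in the mdDA domain and 5.16 and 5.23 in the lateral domain. Sorted neurons of E13.5 read 5.70 and 5.37 and those of E14.5 read 5.11 and 4.90. Both mdDA arrays lay below the other 6, and they were the only arrays on which *Fzd8* fell below the median of the array. The log2 difference of the mdDA domain from the lateral domain was -1.03 (SE 0.16, 95% interval -1.45 to -0.61, limma adjusted p = 0.0912). *Fzd5* stayed between 4.19 and 4.65 on all 8 arrays, the lowest and the highest of which were the 2 mdDA arrays. Its groups overlapped throughout.

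The remaining Frizzled genes did not pass the test between the domains. *Fzd4*, the receptor for Norrin in blood vessels of the retina and brain, was at 2.78 to 3.14, below the median of the array on all 8 arrays; no detection level was set. *Fzd9*, which lies in the region deleted in Williams syndrome in humans, had lateral values of 5.56 and 5.88 and mdDA values of 5.76 and 5.11, which overlapped. *Fzd10*, known from the dorsal neural tube, read 5.13 and 5.37 against 5.14 and 5.39, a log2 difference of 0.02 with a 95% interval of -0.38 to 0.41. *Fzd3* and *Fzd6* carry planar cell polarity signals, *Fzd3* in axon guidance and *Fzd6* in hair patterning. The study's model also proposes FZD3 with LRP6 as the receptor of WNT1 in mdDA progenitors, upstream of b-catenin. *Fzd3* read 8.56 and 8.44 in the lateral domain and 8.33 and 8.47 in the mdDA domain (log2 difference -0.10, 95% interval -0.53 to 0.33). *Fzd6* read 4.43 and 4.42 against 4.49 and 4.76 (log2 difference 0.19, 95% interval -0.24 to 0.63).

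The 3 calls between the domains rested on few arrays. With 3 arrays and no block, every difference kept its sign (*Fzd1* -1.90 to -1.56, *Fzd2* -1.44 to -1.18, *Fzd8* -1.17 to -0.89). *Fzd1* passed only without lateral replicate 2 (limma adjusted p = 0.0946) and not without the others (up to 0.146), while *Fzd2* (0.135 to 0.160) and *Fzd8* (0.146 to 0.228) lost their calls without any one of the 4 arrays. A second round of quantile normalization also ended the call of *Fzd8* (limma adjusted p = 0.105).

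The second question was how the receptors stood in neurons of the dopaminergic lineage after sorting. These comparisons combine stage, strain, reporter and sorting against dissection of fixed and stained sections. The study also credits the sorted cells and their arrays to an earlier report. None of these can be told apart, and the comparisons share arrays with the first one. *Fzd8* was 2.14-fold higher in sorted neurons than in the mdDA domain, with a log2 difference of 1.10 (SE 0.15, 95% interval 0.74 to 1.46, limma over 8 arrays, adjusted p = 0.00994). After centring it was 1.30 (adjusted p = 0.0054). The difference passed with either stage alone, 1.36 for E13.5 (adjusted p = 0.0133) and 0.83 for E14.5 (adjusted p = 0.0381) by limma, and without any single array. Against the lateral domain, by contrast, *Fzd8* in sorted neurons differed by 0.07 (95% interval -0.29 to 0.43, limma adjusted p = 0.791), or by 0.28 after centring.

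*Fzd8* was the 1 of 10 Frizzled genes that was higher in sorted neurons than in the mdDA domain, where 8.53% of all probe sets were. The lower ones were 2 of 10, against 9.84% of all: *Fzd2* with a log2 difference of -0.78 (SE 0.24, limma adjusted p = 0.0946) and *Fzd6* with -0.41 (SE 0.12, limma adjusted p = 0.0790). *Fzd6* read 4.32 and 4.19 at E13.5 and 4.20 and 4.15 at E14.5, below all 4 dissected arrays before centring. Centring reduced these differences to -0.58 for *Fzd2* (limma adjusted p = 0.180) and -0.21 for *Fzd6* (limma adjusted p = 0.317), and neither then passed. The call of *Fzd6* was also lost without any single one of the 8 arrays (adjusted p up to 0.309), and that of *Fzd2* without any except E13.5 replicate 1 or E14.5 replicate 1 (adjusted p up to 0.325). The median over the 10 genes was -0.19, beside -0.08 over all probe sets.

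Against the lateral domain, *Fzd1* and *Fzd2* were each about 4.3-fold lower in sorted neurons, with log2 differences of -2.09 (SE 0.25, limma adjusted p = 0.00305) and -2.09 (SE 0.24, limma adjusted p = 0.00259). Both passed without any single array, and after centring both were at -1.88. In all, 5 of 10 Frizzled genes were lower, against 14.46% of all probe sets, and 0 of 10 were higher, against 11.4%. At an unadjusted p below 0.05 the members were the same 5, all lower, where 32.3% of all probe sets were below it in either direction, and the median over the 10 genes was -0.27, beside -0.09 over all probe sets. *Fzd7* had a log2 difference of -0.65 (SE 0.15, limma adjusted p = 0.0273), and *Fzd9* had a difference of -0.88 (SE 0.22, limma adjusted p = 0.0386). *Fzd9* read 4.61 and 4.83 at E13.5 and 4.77 and 5.15 at E14.5, all below both lateral arrays. Centring left -0.44 for *Fzd7* (limma adjusted p = 0.0962) and -0.67 for *Fzd9* (limma adjusted p = 0.0789). Without either lateral array neither passed (limma adjusted p up to 0.160 for *Fzd7* and 0.221 for *Fzd9*). *Fzd9* also missed the threshold with E14.5 neurons alone (log2 difference -0.76, limma adjusted p = 0.103). *Fzd3* had the smallest of these differences, -0.32 (SE 0.10, limma adjusted p = 0.0834), which became -0.11 after centring (limma adjusted p = 0.524) and was lost without any one of the 8 arrays (limma adjusted p up to 0.340).

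**Figure D2:**
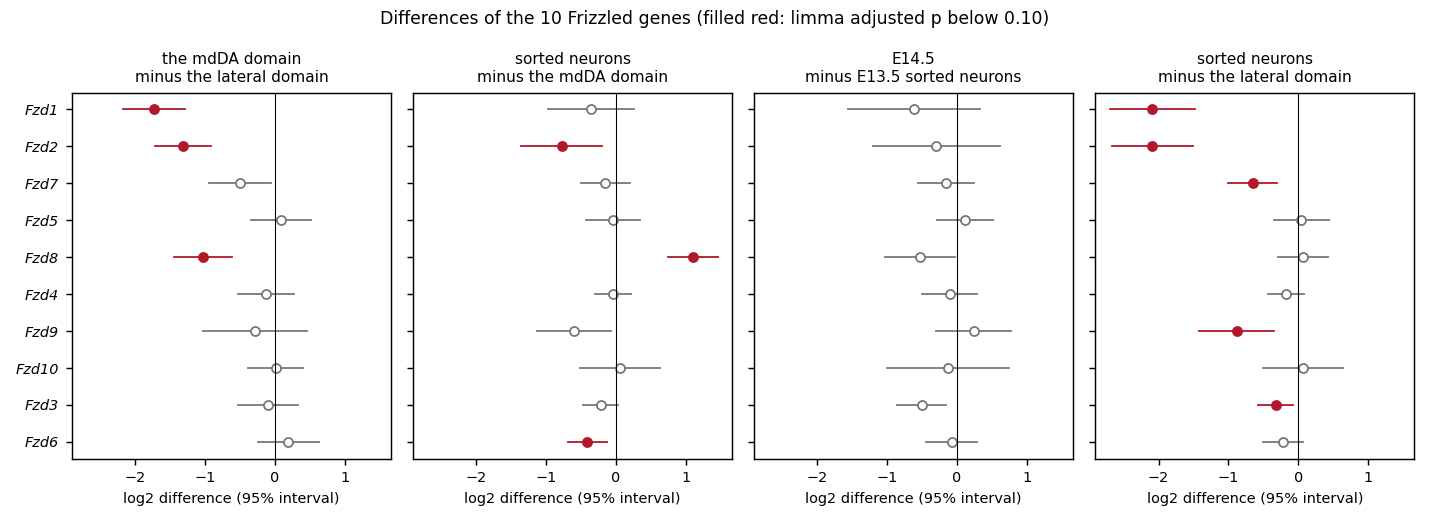
Log2 differences (x axis) of the 10 Frizzled genes (y axis) in the 4 comparisons, with points for the limma estimate, lines for its 95% interval and filled red for an adjusted p below 0.10. *Fzd8* is at -1.03 in the first panel, 1.10 in the second and 0.07 in the last, and *Fzd1* and *Fzd2* are lowest in the first and last panels; values are not centred, and the calls of *Fzd2* and *Fzd6* in the second panel and of *Fzd3* in the last end with centring.

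The third question was whether the receptors changed between E13.5 and E14.5 in sorted neurons. By limma on the 4 sorted arrays 0 of 10 Frizzled genes and 0% of all probe sets passed, the smallest adjusted p over all probe sets being 0.605. At an unadjusted p below 0.05 there were 2 Frizzled genes, *Fzd3* and *Fzd8*, and 2156 probe sets in all (6.06%). *Fzd3* read 8.42 and 8.44 at E13.5 and 7.97 and 7.88 at E14.5, and both E14.5 arrays lay below the other 6. Its log2 difference was -0.51 (SE 0.13, 95% interval -0.86 to -0.15, unadjusted p = 0.0161 and adjusted p = 0.744 by limma). The *Fzd3* difference of sorted neurons from the lateral domain was -0.07 with E13.5 alone and -0.58 with E14.5 alone. *Fzd8* differed by -0.53 between the stages (SE 0.18, 95% interval -1.03 to -0.03, limma adjusted p = 0.816), and *Fzd1* by -0.62 with a wide 95% interval of -1.57 to 0.32. Of the 10 genes 8 were lower at E14.5, where 49.2% of all probe sets were.

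Ordered by group mean, *Fzd1*, *Fzd2* and *Fzd7* were lowest in E14.5 neurons and highest in the lateral domain, with or without centring. Between these, E13.5 neurons lay below the mdDA domain for all 3 genes before centring, and after it only for *Fzd2* (centred means 5.98 and 6.41), while *Fzd1* (6.21 and 6.06) and *Fzd7* (4.70 and 4.58) turned. On the uncentred arrays, neighbouring groups of *Fzd1* and *Fzd7* were apart between the mdDA and lateral domains and between E14.5 and E13.5, and for *Fzd2* they were apart between the domains and between E13.5 and the mdDA domain. *Fzd8* was lowest in the mdDA domain and highest in E13.5 neurons, with or without centring. E14.5 neurons and the lateral domain lay between, apart by their arrays before centring, with E14.5 neurons the lower, and in the opposite order after it (5.11 and 5.09). *Fzd3*, *Fzd4* and *Fzd6* also had neighbouring groups that were apart, while *Fzd5*, *Fzd9* and *Fzd10* had none. With so few arrays per group, groups can be apart through the spread of arrays alone. The share of all probe sets with groups apart was not computed, so this separation is description only.

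Genes that act with the receptors were followed in lists. Of 5 secreted Frizzled-related proteins, which carry a Frizzled-like cysteine-rich domain and bind WNTs outside the cell, 2 were lower in the mdDA domain than laterally and 0 were higher. Between the domains 1.1% of all probe sets were lower and 1.52% were higher. *Sfrp1* had a log2 difference of -2.09 (SE 0.21, limma adjusted p = 0.0540) and *Sfrp2* of -1.64 (SE 0.15, limma adjusted p = 0.0494). Of 7 genes of Frizzled turnover and trafficking 2 were lower and 0 higher: *Shisa3*, of a family that holds Frizzled proteins in the endoplasmic reticulum, at -1.50 (SE 0.15, limma adjusted p = 0.0523), and *Lgr4*, an R-spondin receptor that spares Frizzled proteins from degradation, at -1.18 (SE 0.18, limma adjusted p = 0.0915). The ubiquitin ligase genes *Znrf3* and *Rnf43*, whose products remove Frizzled proteins from the membrane, were not called (limma adjusted p = 0.831 and 0.625). The calls of these 4 genes were lost without any one of the 4 arrays (limma adjusted p from 0.101 to 0.401).

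Of 20 ligands 1 was higher in the mdDA domain and 0 were lower, against 1.52% and 1.1% of all probe sets. This was *Wnt5a*, with group means of 4.96 in the lateral domain, 7.09 in the mdDA domain, 7.86 in E13.5 neurons and 7.73 in E14.5 neurons, and a log2 difference between the domains of 2.14 (SE 0.15, limma adjusted p = 0.0345). It passed only without lateral replicate 2 (limma adjusted p = 0.0997) when arrays were left out, and reached 0.141 otherwise. *Wnt5a* was thus high in the groups in which *Fzd1* and *Fzd2* were low. None passed between the domains among 9 co-receptors and other partners, 3 Dishevelled genes and 7 core planar cell polarity genes, by the same limma test. The brightest of each, by mean over the 8 arrays, were *Ryk* (log2 difference -0.28, limma adjusted p = 0.531) and *Lrp6* (-0.05, 0.949), *Dvl3* (-0.15, 0.790) and *Dvl2* (-0.24, 0.619), and *Celsr3* (0.15, 0.775) and *Celsr2* (-0.57, 0.229). At an unadjusted p below 0.05 these lists held *Celsr2*, *Prickle1* and *Prickle2*, which were named after their values were seen, 3 of 19 genes (15.8%) beside 13.7% of all probe sets. List medians between the domains ran from -0.28 for the secreted proteins to 0.13 for the polarity genes, beside -0.01 over all probe sets.

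**Figure D3:**
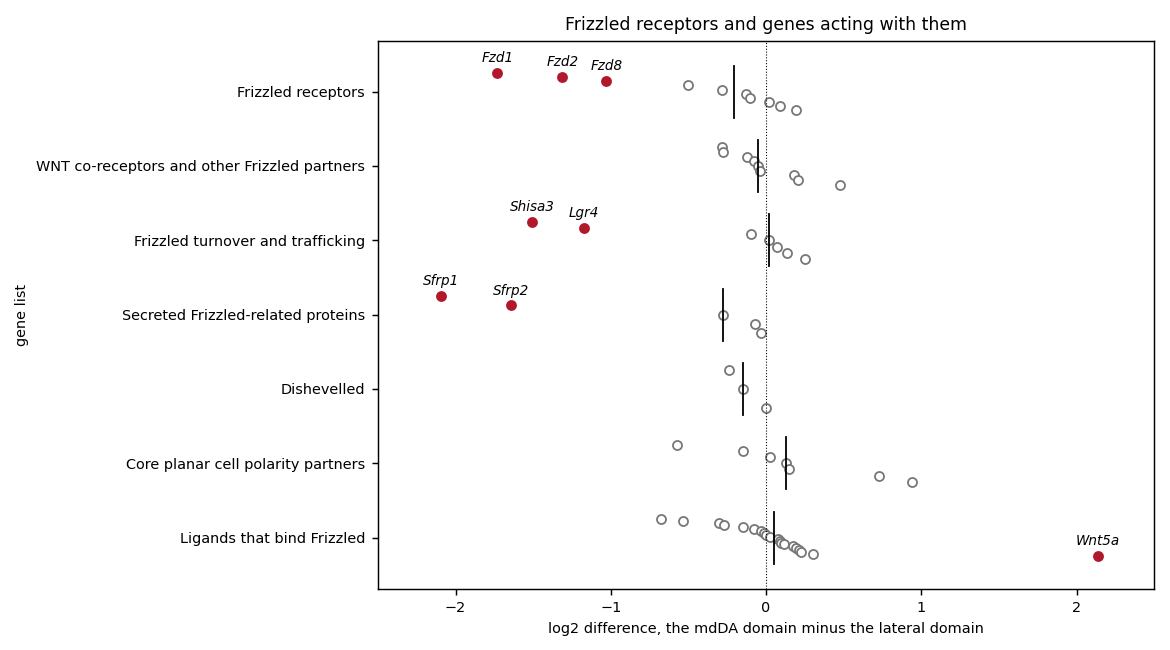
Log2 differences between the mdDA and lateral domains (x axis) for Frizzled genes and 6 lists of genes acting with them (y axis), with 1 point per gene, filled red and named for a limma adjusted p below 0.10, and a bar at the list's median. The named genes other than *Wnt5a* lie on the negative side, and *Wnt5a* lies at 2.14.

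In sorted neurons other partners were called, and those outside the brightest members of each list are named after their values were seen. Against the mdDA domain, 1 of 9 co-receptors and partners was lower, *Lrp5* (log2 difference -0.74, limma adjusted p = 0.0398). Of the turnover genes *Lgr4* was higher (0.72, limma adjusted p = 0.0818), as *Fzd8* was, and the group means of *Lgr4* were 6.46 in the lateral domain, 5.29 in the mdDA domain, 5.91 in E13.5 neurons and 6.09 in E14.5 neurons. Of 7 polarity genes *Celsr1* (-0.61) and *Prickle1* (-0.63) were lower by limma (adjusted p = 0.0492 and 0.0310). No Dishevelled gene, secreted Frizzled-related protein or ligand passed. In this comparison 9.84% of all probe sets were lower and 8.53% were higher, so 1 of 9 co-receptors and partners was near the share of all. The calls of *Lrp5* and *Prickle1* were lost without either mdDA array (limma adjusted p up to 0.217 and 0.143), that of *Celsr1* also without E13.5 replicate 2 (up to 0.200) and with centring (0.126), and that of *Lgr4* without any array except mdDA replicate 2 (up to 0.346).

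Against the lateral domain, sorted neurons were lower in *Sfrp1* (log2 difference -2.20), *Sfrp2* (-1.88), *Shisa3* (-1.50), *Lrp5* (-1.03) and *Celsr2* (-0.69) and higher in *Wnt5a* (2.84) and *Prickle2* (1.34), and these 7 passed limma after centring (adjusted p up to 0.0238) and without any single array. Another 7 genes, *Frzb*, *Lrp6*, *Dvl3*, *Celsr1*, *Wnt2b*, *Wnt7b* and *Wnt8b*, had log2 differences of -0.64 to -0.38 before centring and did not pass after it (limma adjusted p from 0.139 to 0.425). Against the lateral domain, 14.46% of all probe sets were lower in sorted neurons and 11.4% were higher before centring. Between E13.5 and E14.5 no gene of these lists passed.

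Markers of other cell types also differed between the groups, and their part in these results was not tested. Of 9 measured cell division genes 6 were lower in the mdDA domain than laterally. The summed linear signal of the 9 was 1098 to 1118 on the lateral arrays and 379 to 381 on the mdDA arrays. It was 181 to 184 in E13.5 neurons and 163 to 178 in E14.5 neurons. Of 10 neural progenitor genes 3 were lower in the mdDA domain (summed signal 3917 to 4062 against 2395 to 2491), and 8 were lower in sorted neurons than in the mdDA domain. The progenitor sum was 1050 to 1086 in E13.5 neurons and 1512 to 1799 in E14.5 neurons. Between these stages 0 of the 10 progenitor genes and 0% of all probe sets passed. Of 7 GABAergic genes 6 were lower in the mdDA domain, with a summed signal of 1640 to 1768 in the lateral domain, 200 to 218 in the mdDA domain, 590 to 699 in E13.5 neurons and 563 to 578 in E14.5 neurons. By this sum the mdDA domain was the lowest group. The list median was 5.128 and 4.935 on the mdDA arrays and 5.002 and 5.105 in E14.5 neurons, which overlapped. It was 5.887 and 5.873 in E13.5 neurons and 7.284 and 7.116 laterally. Against the lateral domain 6 of the 7 genes were lower in sorted neurons and 1 was higher. The shares of all probe sets were 14.46% and 11.4%. Pearson correlation with the median of the GABAergic genes over the 8 arrays was 0.51 for *Fzd8*, 0.90 for *Fzd1* and 0.77 for *Fzd2*. With the cell division median it was -0.05, 0.91 and 0.96 in the same order. With the progenitor median it was -0.27, 0.83 and 0.92, and with the median of the dopaminergic genes -0.004, -0.92 and -0.94. Among the 7 GABAergic genes 4 were higher in sorted neurons than in the mdDA domain. Between the domains 2 of 10 general neuronal genes were higher in the mdDA domain, and none of the 8 endothelial, 6 pericyte and mesenchyme, 7 microglial and 3 erythroid genes passed by limma. In sorted neurons 6 of 8 endothelial, 2 of 6 pericyte and mesenchyme and 3 of 3 erythroid genes were lower than in the mdDA domain and 0 of 7 microglial genes were. Of all probe sets, 1.1% were lower and 1.52% higher in the mdDA domain than laterally. In sorted neurons 9.84% were lower and 8.53% higher than in the mdDA domain. No marker was listed at 0 on any array, which says nothing of detection, since the lowest value of any probe set was 1.85. In sorted neurons 7 to 8 of the 8 endothelial genes lay below the median of the array.

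**Figure D4:**
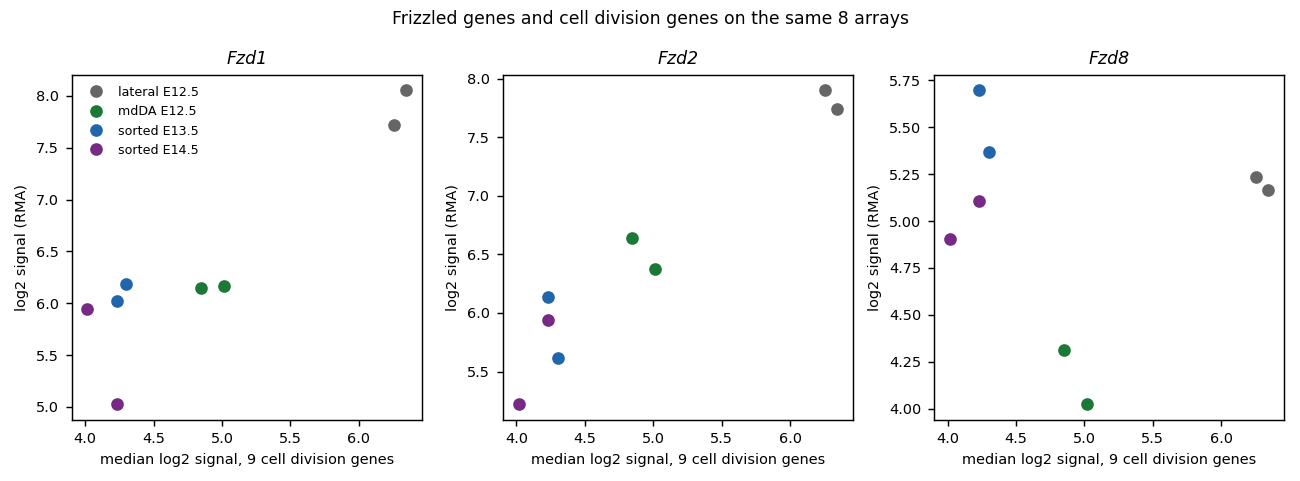
Log2 signal of *Fzd1*, *Fzd2* and *Fzd8* (y axes) against the median log2 signal of 9 cell division genes (x axes) on the 8 arrays, coloured by group. The lateral arrays are highest on both axes for *Fzd1* and *Fzd2*, while for *Fzd8* the mdDA arrays are lowest on the y axis and lie between the sorted and the lateral arrays on the x axis.

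Among 4860 other genes that spanned at least 1 log2 unit over the 8 arrays, those with the most similar profile were sought by Pearson correlation. The 8 arrays are 4 technical pairs, so these coefficients describe 4 group levels in the main. For *Fzd1* they were *Gata2* (r = 0.98), a transcription factor of GABAergic midbrain neurons, *Nav2* (0.98) and the fibroblast growth factor receptor gene *Fgfr2* (0.98). For *Fzd2* they were *Arid5b* (0.99), *Thsd7a* (0.99) and *Smc4* (0.99), a subunit of the condensin that packs chromosomes at cell division. For *Fzd8* they were *Bzw1* (0.95), *Ndst3* (0.94), an enzyme that modifies heparan sulphate, and *Fn3krp* (0.94). Profiles with r above 0.9 were common for *Fzd1* (203 genes) and *Fzd2* (341 genes), and there were 8 for *Fzd8*.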

How the data were processed

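Total RNA of the mdDA and lateral domains and of sorted neurons was amplified, labelled and hybridised to 8 arrays. The deposited values are log2 signals of probe sets, which per the labels' processing notes came from RMA (Affymetrix Expression Console 1.2) and which the authors normalized by sketch-quantile scaling. They were used without further normalization or filter. The array's genome build is not given in the sources used here. Of 35556 probe sets 21789 had 1 symbol in the annotation used, and 21698 of these matched RefSeq by gene ID. A gene with several probe sets was represented by the brightest by mean.

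Differences were computed with limma 3.58.1 in R 4.3.3, with Benjamini-Hochberg adjustment over all probe sets and a false discovery rate below 10%. The domains were compared on their 4 arrays with the replicate number as a block, after the paired test of the study's methods, which leaves 1 residual degree of freedom per probe set. Sorted neurons (mean of both stages) were compared with each domain over 8 arrays, and E14.5 with E13.5 over 4, without a block. The numbers did not visibly pair the arrays: deviations from the group means correlated between -0.037 and 0.013 over all probe sets. The fits were also run on simulated arrays with independent noise and no replicate effect. That run cannot speak to technical replicates or to the choice of block. Arrays give no counts, so their number limits the precision.

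Alternatives were other blocks, arrays, scalings, filters and thresholds, and leaving out each array. Named genes were all Frizzled genes; up to 3 members of each partner list past the threshold between the domains, or else the 2 brightest; the 3 most similar profiles for each Frizzled gene called there; and other called members where a count was 5 or fewer. Members and lists were chosen with earlier results of these data known.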

Additional observations from a re-analysis of the deposited data

How the results depend on the processing

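The 11 called Frizzled differences kept their direction under every alternative run (179 values), and 61 of these values no longer passed the test. Many of the 179 values could not change direction. A stricter threshold, the block, a filter, a trended fit or another set of arrays for the spread leaves the difference itself as it was. Of 3 genes lower in the mdDA domain than laterally, 0 passed at a false discovery rate below 5% and 0 to 1 with 1 array left out. Without the replicate block there were 3. With only probe sets of 1 symbol tested there were 4, *Fzd7* being added (limma adjusted p = 0.0755). Beside the 2 genes lower in sorted neurons than in the mdDA domain (*Fzd2* and *Fzd6*), the count was 0 at 5%, with the replicate block, with 6 arrays, with E13.5 alone or with median centring. It was 1 without dim probe sets (7 of 10 genes tested) or with a trended, robust fit, in both cases *Fzd2*, and 1 with E14.5 alone, which was *Fzd3* and neither of the 2. Repeated quantile normalization called *Fzd2* and *Fzd3*. With only probe sets of 1 symbol tested there were 3, *Fzd2*, *Fzd6* and *Fzd9*. With 1 array left out the count was 0 to 1, and the gene was *Fzd2*, or *Fzd1* without E14.5 replicate 2 and *Fzd9* without mdDA replicate 2. Of 5 lower in sorted neurons than in the lateral domain, 2 to 4 passed with 1 array left out. Counts of higher genes, and both counts between E13.5 and E14.5, moved nowhere. Averaging a gene's probe sets was not run, since each Frizzled gene has 1.

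Log2 differences that changed sign were all of genes not called. Between the domains with 1 array left out, *Fzd5* ran from -0.15 to 0.32, *Fzd9* from -0.61 to 0.044 and *Fzd10* from -0.11 to 0.14. For sorted neurons minus the mdDA domain, *Fzd3* was 0.033 and *Fzd4* 0.005 with E13.5 alone, and *Fzd5* 0.015 and *Fzd10* -0.015 with E14.5 alone. Repeated quantile normalization gave *Fzd4* 0.090, *Fzd5* 0.15 and *Fzd7* 0.045, and centring gave 0.15, 0.15 and 0.047. With 1 array left out *Fzd4* ran from -0.10 to 0.0055, *Fzd5* from -0.28 to 0.19, *Fzd7* from -0.36 to 0.060 and *Fzd10* from -0.15 to 0.25. Between E14.5 and E13.5, *Fzd2* ran from -0.65 to 0.06, *Fzd4* from -0.21 to 0.001 and *Fzd10* from -0.54 to 0.27. For sorted neurons minus the lateral domain, centring gave *Fzd4* 0.036, quantile normalization *Fzd6* 0.0006, E13.5 alone *Fzd5* -0.015 and E14.5 alone *Fzd8* -0.19. With 1 array left out *Fzd5* ran from -0.061 to 0.15, *Fzd8* from -0.012 to 0.15 and *Fzd10* from -0.13 to 0.27. The causes were not tested.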
